A study of Mus musculus with 10 samples.

Results

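The H3K36me3 peaks of mouse neutrophils were compared between Morrbid-deficient (KO) and wild-type (WT) mice. All rows of the deposited H3K36me3 table were taken, which gave 43255 of the 246468 consensus peaks listed for the 4 histone marks of the series. The labels describe neutrophils taken ex vivo without culture, from WT C57BL6 mice and from Morrbid-deficient mice on a C57BL6 background, with no treatment given. Chromatin was sonicated and precipitated with a rabbit polyclonal antibody to histone H3 trimethylated at lysine 36, and the mark was read in 1 library per genotype. The way the Morrbid allele was made, the age and sex of the mice, and the number of animals per library are not given in the labels. With 1 library per group no difference reported here has a replicate check, so values carry counting intervals and no p-value.

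H3K36me3 is placed on the bodies of transcribed genes by SETD2, a methyltransferase that travels with elongating RNA polymerase II, and it is therefore read as a mark of transcription through a gene. Morrbid, named Gm14005 in the files, is a long non-coding RNA encoded next to Bcl2l11 on mouse chromosome 2. Bcl2l11 encodes Bim, a pro-apoptotic BCL2 family protein that limits the life of short-lived myeloid cells such as neutrophils, and Morrbid is known in mice as a restraint on Bcl2l11 expression.

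The starts of 4 genes on which the results turn are shown because H3K36me3 in a gene body follows transcription from its start. They are RefSeq promoter windows of GRCm38.p6, from 250 bases before to 50 bases after the start, and these coordinates are of another build than the mm9 peaks. Where a gene had several starts, the window with most CpG was taken. Capitals mark matches on either strand to 3 motifs, and no match overlaps another. The GC box was searched as GGGCGG. The TATA box was searched as TATAAA. The purine-rich core bound by the myeloid factor PU.1 was searched as GAGGAA. Bcl2l11 lies at chr2:128127325-128127624 on the plus strand, Gm14005 at chr2:128429302-128429601 on the minus strand, Nlrp3 at chr11:59542436-59542735 on the plus strand and Trpm2 at chr10:77969823-77970122 on the minus strand.
Bcl2l11: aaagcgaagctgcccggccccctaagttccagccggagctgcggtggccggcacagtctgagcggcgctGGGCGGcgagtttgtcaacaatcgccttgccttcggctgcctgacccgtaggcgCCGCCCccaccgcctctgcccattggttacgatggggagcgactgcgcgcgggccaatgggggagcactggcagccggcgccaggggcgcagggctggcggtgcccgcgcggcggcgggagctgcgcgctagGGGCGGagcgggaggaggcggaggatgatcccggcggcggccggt
Gm14005: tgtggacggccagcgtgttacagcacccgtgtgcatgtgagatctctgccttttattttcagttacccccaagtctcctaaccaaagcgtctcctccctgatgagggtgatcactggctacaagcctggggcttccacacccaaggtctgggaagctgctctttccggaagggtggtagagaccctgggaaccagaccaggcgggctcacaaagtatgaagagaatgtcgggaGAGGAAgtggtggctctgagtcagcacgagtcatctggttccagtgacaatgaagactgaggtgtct
Nlrp3: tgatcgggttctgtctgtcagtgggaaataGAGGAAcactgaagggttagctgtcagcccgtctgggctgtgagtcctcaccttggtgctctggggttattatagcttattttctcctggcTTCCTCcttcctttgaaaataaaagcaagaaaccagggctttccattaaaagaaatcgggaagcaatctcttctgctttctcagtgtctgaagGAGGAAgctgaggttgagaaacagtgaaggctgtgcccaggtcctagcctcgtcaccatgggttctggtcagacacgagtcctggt
Trpm2: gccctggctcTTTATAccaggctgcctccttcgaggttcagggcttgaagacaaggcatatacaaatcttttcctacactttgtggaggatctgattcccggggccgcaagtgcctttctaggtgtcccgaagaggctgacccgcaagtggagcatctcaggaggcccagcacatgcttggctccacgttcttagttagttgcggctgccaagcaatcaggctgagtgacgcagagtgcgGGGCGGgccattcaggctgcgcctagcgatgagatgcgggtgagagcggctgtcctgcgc
The Bcl2l11 window held 38 CpG dinucleotides and 3 GC boxes. The Gm14005 window held 8 CpG and 1 PU.1 core, the Nlrp3 window 5 CpG and 3 PU.1 cores, and the Trpm2 window 15 CpG, 1 GC box and 1 TATA box. Over 32851 promoter windows the median number of CpG was 7 and the 90th percentile 31, and 35.7% held the GC box, 13.6% the TATA box and 28.3% the PU.1 core. These matches describe letters only. Of the 24 genes named below for their ratio, 18 were matched to a promoter window.

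Depth was close in both libraries, with 11618230 reads in H3K36me3 peaks in the WT and 13095590 in the KO, a ratio of 1.13. The deposited values were taken as reads divided by a library factor, so a single WT read counts as 1.07 normalized units and a single KO read as 0.935. The lowest value in each column was taken as 1 read, where 0 and 1 read cannot be told apart. The difference of a peak or gene is log2 of (KO + 1)/(WT + 1) in normalized units, centred on its median over the 43255 peaks, and is called the log2 ratio below. The pseudocount of 1 makes it understate differences of weak peaks. Ranges after a log2 ratio are exact 95% binomial (Clopper-Pearson) intervals on the reads. They cover counting error only, since copies made by PCR are not independent molecules, and they treat the recovered numbers as raw reads. In these bulk libraries, fewer cells carrying the mark and less mark per cell cannot be told apart.

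The labelled cell type was checked on genes that define neutrophils. Of 16 listed neutrophil markers 13 carried a gene-body peak, and these summed to 15363 (WT) and 15774 (KO) normalized units. The granule gene Ltf had 2091 WT and 2726 KO reads, the granulocyte colony-stimulating factor receptor gene Csf3r 1486 and 1691, and the integrin gene Itgam 4113 and 4875. Ly6g, Camp and S100a8 had no gene-body peak. Markers of most other cells were low or absent, but those of the progenitor list were not. The T cell list had a peak at 5 of 16 genes (857 WT and 840 KO units, and none at Cd3e, Cd3g, Cd4 or Cd8a), and the B cell list at 6 of 11 (775 and 782, none at Ms4a1 or Pax5). The monocyte and macrophage list had 666 and 650 units over 9 of 13 genes, the dendritic cell list 194 and 203 over 5 of 14, the NK cell list 60.1 and 66.4 over 3 of 10, the eosinophil list 119 and 105 at 1 of 9 and the erythroid list 116 and 95.4 over 2 of 13. Larger sums stood at the mast cell and basophil list (2460 and 2225, mostly Kit), the platelet list (1799 and 1696, mostly Itgb3) and the progenitor list (8788 and 8832, mostly Erg, Kit and Myb), whose leading genes other blood cells also use. Erg had 4637 WT and 5611 KO reads, more than Itgam, while Kit had 2099 and 2108 and Myb 1378 and 1614. Whether progenitor cells added to these libraries was not tested. No list of another cell type differed in sum by 1.5-fold between the libraries.

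Gene bodies held most of the mark. By the deposited annotation of the peak centre, 32616 peaks (75.4%) lay in a gene body and 10639 (24.6%) were intergenic, and the gene-body peaks held 95.2% of the reads. The median gene-body peak was 2.37 kb wide with 119 reads over both libraries, and the median intergenic peak was 0.991 kb wide with 44 reads. Introns alone held 28118 peaks and 85.0% of the reads, exons 5.60%, transcription termination sites 2.01%, 3' UTRs 1.89% and promoter-TSS peaks 0.443%. The share of reads in gene bodies was 95.2% in the WT and 95.2% in the KO, so the distribution between the classes was the same to 3 digits. The strongest gene-body peak covered 324 kb of Abca13, a lipid transporter gene, with 18460 WT and 21331 KO reads and a log2 ratio of 0.00 (-0.02 to 0.03). Strong peaks in Wdfy4 (-0.09), Sorl1 (0.03), Eif4g3 (0.02) and Lrrk2 (-0.06) were likewise near even.

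**Figure D1:**
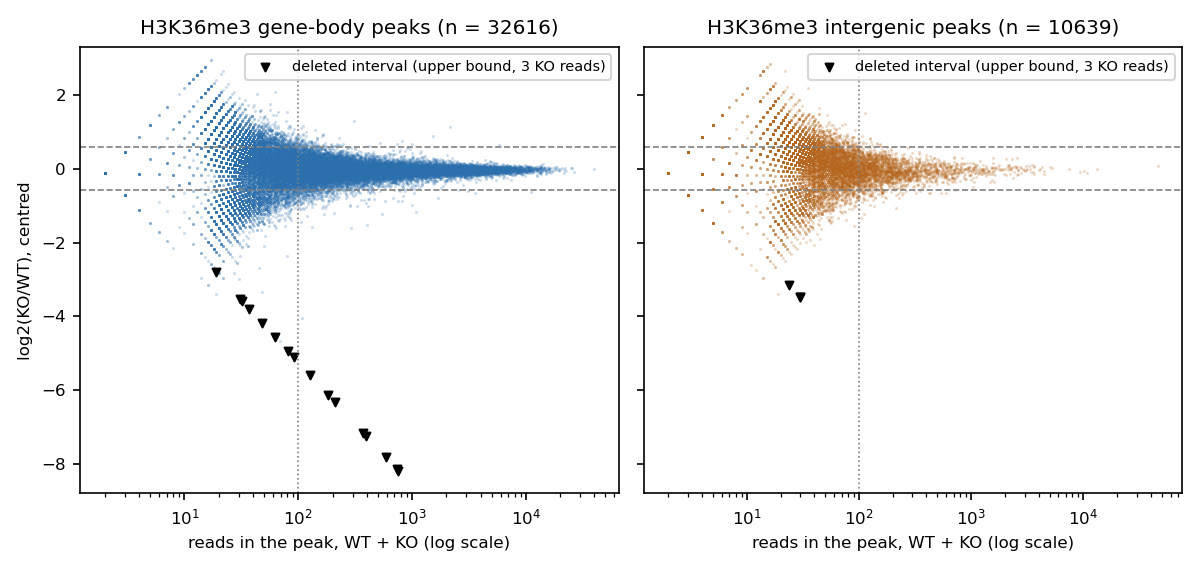
Each point is a H3K36me3 peak in gene bodies (left) or intergenic (right), with its reads over both libraries on a log axis and the log2 ratio of KO over WT. Dashed lines mark 1.5-fold and the dotted line 100 reads; past that line points outside the dashed lines are few, and black triangles mark the peaks without KO reads on chromosome 2 at their upper bound.

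Few strong peaks differed by 1.5-fold. Counted over peaks with at least 100 reads, 113 of 17532 gene-body peaks (0.645%) were at least 1.5-fold higher in the KO and 278 (1.59%) at least 1.5-fold lower, 8 of the latter in the interval around Morrbid described below. Of 2239 intergenic peaks 21 (0.938%) were higher and 74 (3.31%) lower. At 2-fold the counts were 5 higher and 31 lower in gene bodies and 1 and 5 between genes. The lower side was the larger in both classes among peaks with 100 reads. With no read filter the higher side was the larger, at 3405 against 2871 gene-body and 1981 against 1392 intergenic peaks. The split also depends on the centre. Centred on the running median of peaks of similar mean, 152 gene-body peaks were higher and 220 lower (40.9% higher, against 28.9% by the main centring). Centred on peaks with 100 reads, an alternative added after the data had been seen, the counts were 149 and 224 (39.9% higher). The counting interval of each called peak lies to 1 side of 0, which the thresholds of 100 reads and 1.5-fold largely fix in advance. Most called gene-body peaks were weak, as 94 of the 113 higher and 202 of the 278 lower had under 200 reads.

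Intergenic peaks have fewer reads than gene-body peaks, so the shares were also read at matched read number. Between 100 and 200 reads, 2.1% of gene-body and 1.62% of intergenic peaks were higher, and 4.52% and 4.64% were lower. Between 200 and 400 reads 1.31% and 1.93% were lower, and between 400 and 1000 reads 0.609% and 1.39%, which for intergenic peaks is 4 of 288. The median log2 ratio was -0.04 in gene bodies and -0.06 between genes among peaks with 100 reads, a difference of -0.021. That difference was 0.0080 with 50 reads required and 0.065 with no filter, so its sign depended on the read filter. Peaks of 20 to 50 reads had medians of 0.22 in gene bodies and 0.26 between genes, and those above 1000 reads of -0.03 and -0.03. In the bins between, the intergenic median was the lower, at 0.03 against 0.05 (50 to 100 reads) and -0.04 against -0.03 (100 to 200). It was -0.09 against -0.06 at 200 to 400 reads and -0.06 against -0.05 at 400 to 1000.

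**Figure D2:**
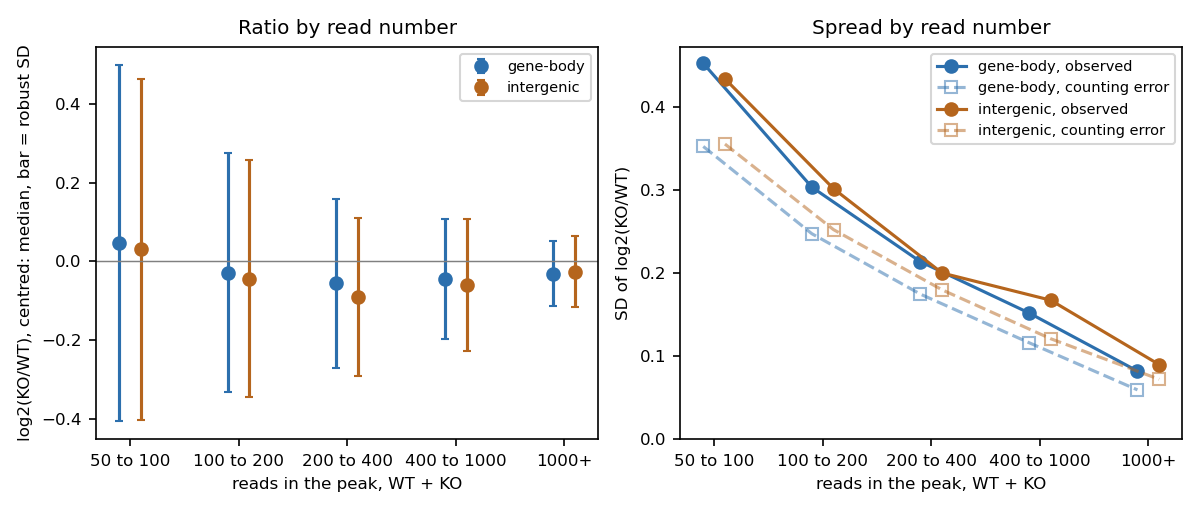
Left, median log2 ratio by reads in the peak, with bars of 1 robust SD over peaks; right, the observed robust SD (solid) beside the SD that counting error alone gives (dashed), for gene-body and intergenic peaks. Observed spread lies above counting error in every bin, for gene-body peaks 0.30 against 0.25 at 100 to 200 reads and 0.08 against 0.06 above 1000 reads.

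The spread over peaks was wider than counting error. At 100 to 200 reads the robust SD of gene-body peaks was 0.30, where counting alone gives 0.25, and above 1000 reads it was 0.08 against 0.06. A counting interval that leaves out 0 is therefore not a replicated difference. The intervals held 0 for 89.2% of gene-body peaks at 100 to 200 reads and for 78.7% above 1000 reads.

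Position within the gene moved the ratio little. Gene-body peaks with 100 reads had a median of -0.04 in introns, -0.03 in exons, -0.03 in 3' UTRs, -0.01 at termination sites and -0.01 at promoters. With peaks placed by intron rank from the start (0) to the end (1) of a gene of at least 5 introns, the median was -0.04 up to 0.2, -0.05 between 0.6 and 0.8 and -0.04 past 0.8. Read density was less even along that path, with a median of 57.8 reads per kb up to 0.2 and 79.0 between 0.4 and 0.6. Peaks in coding transcripts had a median of -0.04 and those in non-coding transcripts -0.03. Over the autosomes the gene-body median lay between -0.05 and -0.03. Among intergenic peaks the median was lower further from the nearest start, at -0.03 within 10 kb, -0.05 at 10 to 50 kb, -0.08 at 50 to 100 kb, -0.11 at 100 to 200 kb and -0.09 further out. The last 2 bins held 169 and 83 peaks, and their interquartile ranges, such as -0.27 to 0.05 at 100 to 200 kb, overlap those of the other bins.

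At the targeted locus H3K36me3 separated the libraries as labelled. Over 157 kb of chromosome 2 (mm9, chr2:128095976-128253457) all 19 peaks were at the KO minimum of 1 read, and the WT had 3837 reads there. Of these, 16 lay in the Gm14005 body and 3 were intergenic, with 18 to 756 WT reads each. Against a floor of 3 KO reads per peak, the strongest was at least 289-fold lower. The last peak before this stretch, called the deleted interval here from its missing reads, ended at 128073484 and the first after it began at 128256184. Gm14005 itself summed to 3756 WT reads over 16 peaks and to 16 KO reads, 1 per peak.

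Bcl2l11 had about double the mark in the KO, over its whole covered body. It had 893 WT and 2088 KO reads at 127953886 to 127989457 of chromosome 2, a log2 ratio of 1.02 (0.91 to 1.14), the highest of all genes at or above the median sum. The peak near its start, centred 4.36 kb in, had 278 WT and 540 KO reads (0.75, 0.54 to 0.97), and the peak over its last intron, centred 23.0 kb in, had 615 and 1548 (1.13, 0.99 to 1.26). The intervals of these peaks do not overlap, so the difference was larger in the far part of the gene than near its start by more than counting error. H3K36me3 past the gene end was also higher, with 224 WT and 391 KO reads over 15 small peaks (0.60, 0.36 to 0.84), 14 of them above 0. No peak of that stretch had 100 reads, and the strongest, centred 49.0 kb from the start, had 27 WT and 45 KO reads. Over all intergenic peaks the median was itself above 0 at such read numbers, 0.26 at 20 to 50 reads and 0.03 at 50 to 100. The part of this offset in the ratio past the gene end was not tested.

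Neighbouring genes had smaller or less certain ratios. Acoxl, the neighbour before Bcl2l11 and an acyl-CoA oxidase relative, had only 14 WT and 30 KO reads in 2 peaks (0.89, -0.07 to 1.92 before the pseudocount). Bub1, a mitotic checkpoint kinase gene, had 1701 and 2041 reads (0.06, -0.04 to 0.15). Past the deleted interval 19 intergenic peaks summed to 714 and 779 reads (-0.08, -0.23 to 0.07), 8 of them above 0. Anapc1, a subunit gene of the anaphase-promoting complex, had 4434 and 4933 reads (-0.05, -0.11 to 0.01), Tmem87b 1645 and 1855 (-0.03) and Zc3h8 412 and 415 (-0.19, -0.39 to 0.01). Polr1b, a subunit gene of RNA polymerase I with its strongest peak 991 kb away, had 356 and 502 reads (0.29, 0.09 to 0.49), with 1 of its 3 peaks below 0.

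**Figure D3:**
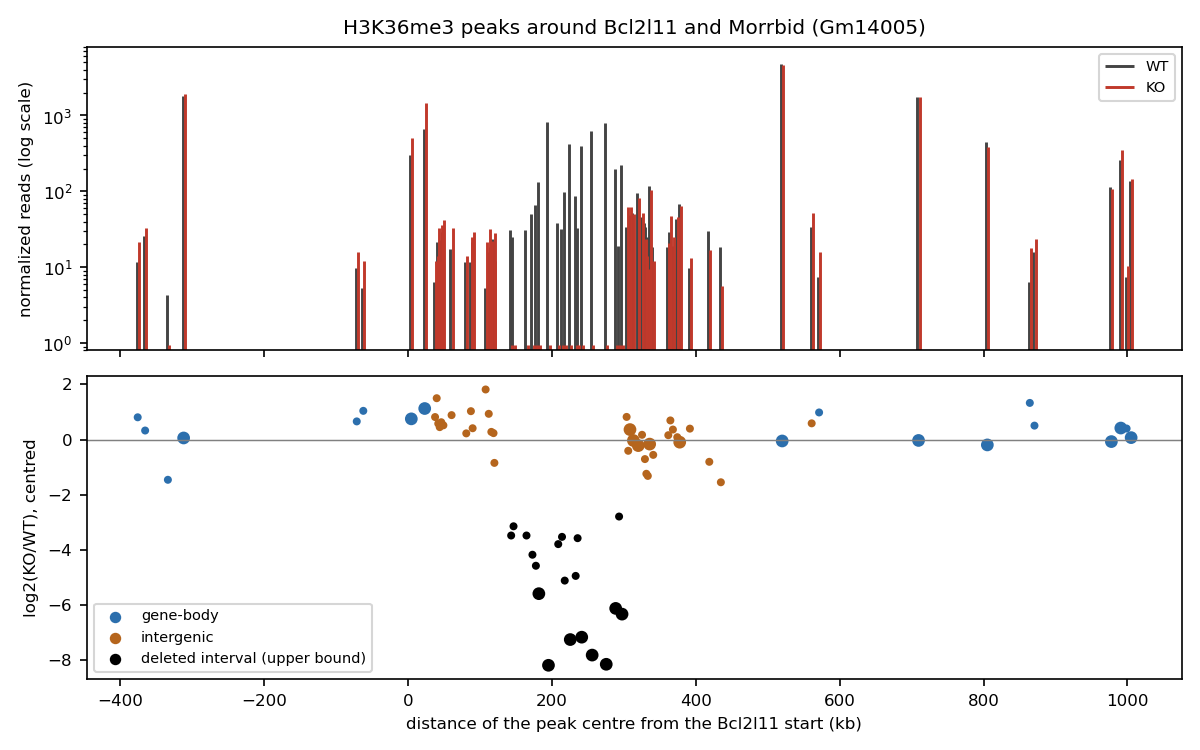
Top, normalized H3K36me3 reads (log axis) of each peak in the WT and KO by distance of its centre from the Bcl2l11 start; bottom, its log2 ratio, large points for at least 100 reads, with black points at the upper bound that 3 KO reads allow. Both Bcl2l11 peaks and 14 of the 15 intergenic peaks after them lie above 0, the 19 black points have no more than 1 KO read, and peaks beyond scatter around 0. Weak intergenic peaks lie above 0 in general, with a median of 0.26 at 20 to 50 reads.

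Summed over gene bodies, 10615 genes had a peak, and 5308 of them stood at or above the median sum. Of these, 4 (0.0754%) were at least 1.5-fold higher in the KO and 6 (0.113%) at least 1.5-fold lower, while their 10th and 90th percentiles were -0.14 and 0.08 and their median -0.03. When weak genes were counted too, 569 of the 10615 (5.36%) were higher and 321 (3.02%) lower.

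After Bcl2l11 the genes with the highest ratio were a lipase, a GTPase exchange factor and a secretory pathway kinase. Lipg, encoding endothelial lipase, had 482 WT and 1032 KO reads in 1 peak (0.89, 0.74 to 1.05). Dock9, an activator of the small GTPase Cdc42, had 394 and 810 reads (0.83, 0.66 to 1.01), with 20 of its 21 peaks above 0 over 183 kb. Fam20c, the kinase of secreted proteins, had 1003 and 1778 reads (0.62, 0.51 to 0.73), and its 5 peaks lay close together between 0.53 and 0.70. Below 1.5-fold came Cmah, which makes the sialic acid Neu5Gc, with 3573 and 6004 reads (0.54) and all 10 peaks above 0. Within Cmah the ratio was not even. In 5 peaks of the low-coordinate end with 44 or more WT reads it was 0.11 to 0.29. A weak peak there, with 8 WT and 21 KO reads, stood at 1.10. Peaks further along stood at 0.49, 0.47 and 0.38. The strongest peak of Cmah, which covers 64.9 kb at the high-coordinate end, stood at 0.65 (0.57 to 0.73). Lrg1, a glycoprotein stored in neutrophil granules, had 463 and 717 reads (0.43), and Bcl3, a nuclear partner of NF-kB p50, had 501 and 773 (0.42). A530046M15Rik (0.39), Arhgap18, a GTPase activating protein (0.38, 17 of 18 peaks above 0), L3mbtl3, a methyl-lysine reader (0.37, 14 of 15), and Ptpn7, a leukocyte phosphatase (0.35), followed. Dock9 and Arhgap18 are sums of many weak peaks. Over all gene-body peaks the median was above 0 at low read number, 0.22 at 20 to 50 reads and 0.05 at 50 to 100. The part of this offset in their ratios and counts was not tested. L3mbtl3 left its counting interval when its strongest peak stood for the gene. Csf2rb2 stood at 0.38, but it is nearly identical to Csf2rb (0.02, 1464 and 1713 reads) and its reads may be shared, so both values are uncertain.

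On the lower side Loxl2 stood furthest out after Gm14005. Loxl2, a lysyl oxidase that acts on collagen, had 783 WT and 237 KO reads on chromosome 14 at 70008828 to 70087764 (-1.92, -2.14 to -1.72). All 12 of its peaks were below 0, from -4.67 to -0.46, and in a peak of intron 3, 101 WT reads stood against 6 KO reads. Gabbr1, a GABA-B receptor subunit, had 690 and 402 reads (-0.98, -1.17 to -0.80), and both its peaks were lower. Thbs1, encoding the matrix protein thrombospondin-1, had 1013 and 673 reads in 1 peak (-0.79, -0.94 to -0.65). Trpm2, an oxidant-sensitive calcium channel of neutrophils, had 2752 and 2070 reads (-0.62, -0.70 to -0.53), and none of its 4 peaks lay above 0. Rn45s, the ribosomal RNA precursor, had -0.62, which is uncertain because it is present in many copies. Below 1.5-fold were Amica1, a junctional adhesion protein of migrating neutrophils (-0.57), Sema4f (-0.56), the mitochondrial iron importer gene Slc25a37 (-0.56), Cd101, a surface protein of mature neutrophils (-0.55), and Dennd2a (-0.54). Ctse, the protease cathepsin E, was split, since its peak starting at 133535737 on chromosome 1 had 361 and 460 reads (0.14) and the one centred in intron 6 had 711 and 366 (-1.16, -1.35 to -0.98).

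**Figure D4:**
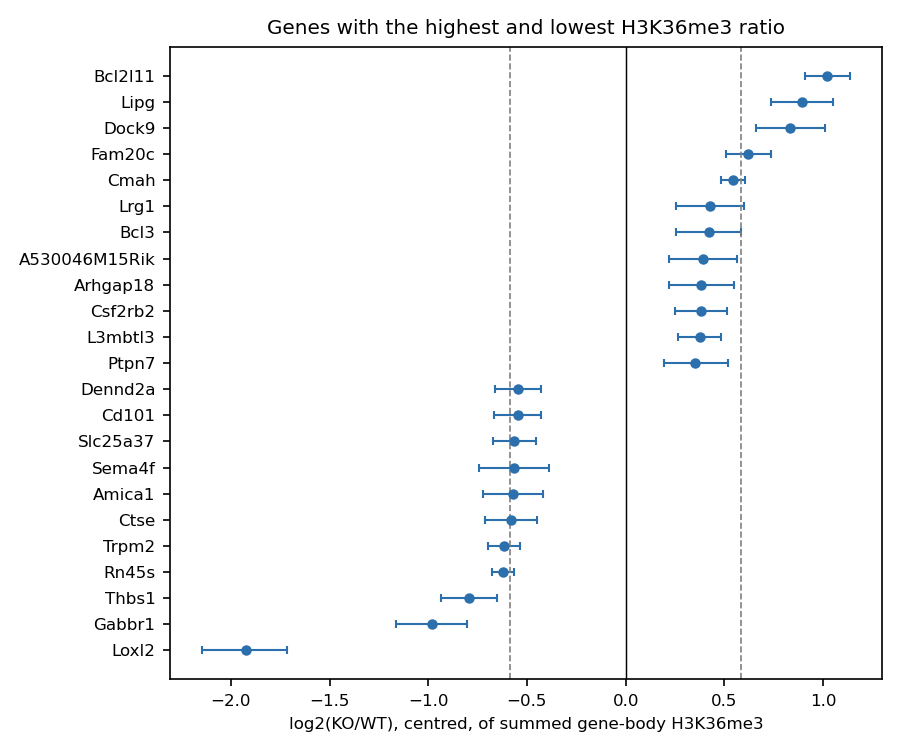
Log2 ratio of summed gene-body H3K36me3 for the 12 genes with the highest and 11 of the 12 with the lowest ratio among genes at or above the median sum (Gm14005, a bound only, is not drawn), with exact 95% counting intervals and dashed lines at 1.5-fold. Bcl2l11 (1.02), Lipg, Dock9 and Fam20c lie past the upper line and Loxl2 (-1.92), Gabbr1, Thbs1, Rn45s and Trpm2 past the lower.

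Neighbouring genes could share or oppose these ratios, in cases picked after their values had been seen. Slc25a37, Entpd4 and Loxl2 lie in this order within 228 kb of chromosome 14. Slc25a37 had 1606 WT and 1252 KO reads, Entpd4, a Golgi nucleotidase gene, 333 and 275 (-0.48, -0.72 to -0.25), and Loxl2 was the lowest of them. On chromosome 1, Ptprv at 137005472 to 137024785 had 574 and 471 reads (-0.49, -0.67 to -0.31), while Ptpn7, starting at 137031133, had 526 and 775 (0.35, 0.19 to 0.52). Their intervals do not overlap, so lower and higher ratios stood next to each other.

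Genes just under the median sum held further large ratios. Nlrp3, the inflammasome sensor, had 576 WT and 259 KO reads (-1.35, -1.58 to -1.14), and both of its peaks were lower. Mybl1, a MYB family factor, had 543 and 374 reads (-0.74, -0.94 to -0.55) with all 4 peaks below 0. Jak3, the kinase of the common gamma chain receptors, had 361 and 661 reads (0.67, 0.48 to 0.86), and Upp1, uridine phosphorylase, 336 and 587 (0.60, 0.40 to 0.80). Well below that level, Tgm1, a transglutaminase, had 106 and 289 reads (1.23, 0.92 to 1.58), and its 3 peaks stood at 1.29, 0.93 and 1.14; the first was the highest of all gene-body peaks with 100 reads.

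Some genes held several peaks past 1.5-fold. Over all gene-body peaks with 100 reads, 1.59% were lower and 0.645% higher. Fmnl2, a formin that builds actin filaments, held 8 gene-body peaks at least 1.5-fold lower among 21 with 100 reads. Of all its 34 peaks 9 lay above 0, and its whole body had a ratio of -0.44. Ralgps1, a Ral exchange factor, held 7 such lower peaks. It was lower nearly throughout, with 1 of its 20 peaks above 0 (0.01), and its whole body had a ratio of -0.54. Fam20c held 4 peaks past 1.5-fold upward, of 5 in all. Lhfpl2 and Thada held 4 lower peaks each, and Ccnd3, encoding cyclin D3, 3 of its 19. A gene with more peaks has more that can pass, so these counts do not rank the genes. Among 1705 genes with at least 3 peaks of 100 reads, the range from the lowest to the highest peak had a median of 0.40, and 63 genes had a range of 1 or more. Map4k5, for example, ran from -0.60 to 0.94 (0.35 to 1.58, 34 WT and 76 KO reads) over 7 such peaks. Clpb ran from -0.60 to 0.93 (0.32 to 1.61, 31 and 69 reads) over 11. Counting alone gives an SD of 0.25 for gene-body peaks of 100 to 200 reads, and a range widens with the number of peaks. How much of these ranges is counting error was not tested.

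Gene groups were near even as a rule. Of all genes at or above the median sum only 0.0754% passed 1.5-fold upward and 0.113% downward, so a list of this size seldom holds 1. The H3K36 methylation writers, erasers and readers had 21 members at that level, 0 past 1.5-fold and a median of -0.02, against -0.03 over all such genes. Their lowest were the reader Zmynd11 (-0.20, -0.27 to -0.12) and the demethylase Kdm4b (-0.19), and their highest Brpf1 (0.07) and Glyr1 (0.06). Of 24 transcription elongation factors 0 passed 1.5-fold (median -0.06), with Ell2, a subunit gene of the super elongation complex, lowest at -0.25 and Ccnt2, a cyclin of P-TEFb, highest at 0.13.

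Of the cell death genes at or above the median sum, Bcl2l11 was the only one past 1.5-fold. Of 14 pro-apoptotic BCL2 family genes 11 had a peak and 2 stood at or above the median sum, Bcl2l11 at 1.02 and Bnip3l, a mitophagy receptor, at -0.05 (-0.15 to 0.05). Below that level Bak1 had 292 WT and 380 KO reads (0.17), Bad 207 and 251 (0.07) and Bax 119 and 134 (-0.03). Pmaip1 and Bbc3, which encode Noxa and Puma, had 78 and 80 reads (-0.17) and 83 and 88 (-0.12), and Bmf 40 and 29 (-0.65), the only other member past 1.5-fold. Among pro-survival genes Mcl1, on which neutrophils depend, had 507 and 670 reads (0.20, 0.03 to 0.37) and Bcl2l1 1621 and 1930 (0.05). Below the median sum Bcl2l2, encoding the survival protein BCL-W, had 42 and 78 reads (0.68, 0.13 to 1.27), past 1.5-fold. Over all genes with a peak, weak ones included, 5.36% were past 1.5-fold upward and 3.02% downward.

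Genes of neutrophil maturation and trafficking ran from Trpm2 (-0.62) upward among members at or above the median sum. Of these 18 genes 1 passed 1.5-fold downward, Trpm2, against 0.113% of all genes at that level, and with running median centring it stood at -0.58, short of 1.5-fold. Amica1 and Cd101 came close, while the list's median was 0.00 and its highest members Fcgr2b and Ptafr stood at 0.09. Trpm2, Amica1 and Cd101 were on the list with earlier results of these data known. The 10 secondary and tertiary granule genes ran from Lyz2 (-0.15) to Ltf (0.18) with a median of -0.03, and the 5 NADPH oxidase genes, which make the oxidative burst, from Ncf4 (-0.08) to Ncf1 (0.10). Of the primary granule list 1 gene had enough reads, Serpinb1a (0.15, -0.0010 to 0.31). Lineage factors ran from Rara (-0.26, -0.38 to -0.14) to Klf5 (0.21, 0.09 to 0.33).

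Inflammatory and signalling lists were mixed. Of the inflammasome and interleukin-1 list 5 genes stood at or above the median sum, from Nek7 (-0.19), a partner of Nlrp3, to Casp4 (0.19), the sensor of intracellular lipopolysaccharide. Of these 0 passed 1.5-fold, against 0.0754% upward and 0.113% downward of all genes at that level. Below that level Nlrp3 was at -1.35, the interleukin-1 beta gene Il1b at -0.43 (204 WT and 174 KO reads) and the receptor antagonist gene Il1rn at -0.35 (341 and 308). Among 11 NF-kB genes Bcl3 was highest (0.42) and the inhibitor gene Nfkbiz lowest (-0.11), and among 10 cytokine receptor and JAK-STAT genes the uncertain Csf2rb2 was highest, and Stat5b stood at -0.07. The 10 interferon-stimulated genes lay between -0.09 (Parp14) and 0.10 (Trim30a). Of 18 cell cycle and replication genes Ccnd3 was lowest (-0.42, -0.55 to -0.29) and Mcm5, a subunit of the replicative helicase, highest (0.16). The ribosomal protein list had 1 gene with enough reads, Rps3 (0.08).

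**Figure D5:**
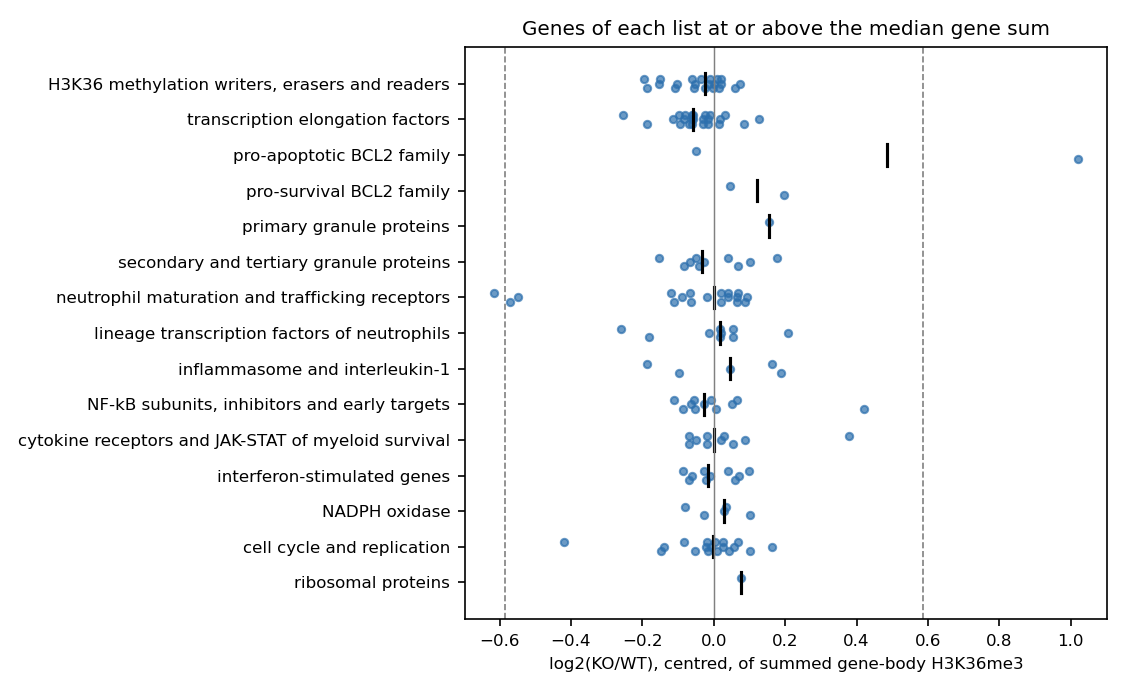
Each point is a gene at or above the median gene-body sum, placed by its log2 ratio in the list it belongs to; black bars are list medians and dashed lines 1.5-fold. Bcl2l11 at 1.02 and Trpm2 at -0.62 are the points past the lines, and the other points lie between -0.57 and 0.42.

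Intergenic peaks past 1.5-fold were weak. The highest with 100 reads, 2.09 kb upstream of the zinc finger gene Zfp791 on chromosome 8 at 87647172 to 87651003, had 26 WT and 88 KO reads (1.52, 0.91 to 2.24). The next, 2.1 kb upstream of S100a9, a calprotectin subunit gene, had 34 and 73 reads (0.88, 0.29 to 1.53), where the S100a9 body itself had 223 and 199 (-0.37). Among the lowest, a peak 83.9 kb upstream of F13a1 had 75 and 36 reads (-1.24). With 400 reads 0 intergenic peaks were higher and 4 lower, of which 1 lay 8.16 kb upstream of Ly6a with 343 and 250 reads (-0.66, -0.90 to -0.42).

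The class called intergenic is not free of genes. The strongest intergenic peak, and the strongest of all 43255, was 294 kb wide and nearest to Syne1, a nuclear envelope gene, with 20839 WT and 25061 KO reads (0.06, 0.03 to 0.09). In all, 52 intergenic peaks cover the nearest annotated start, and 9 are 50 kb or wider, since the class is set by the peak centre and the deposited annotation. For 1058 intergenic peaks whose nearest gene stood at or above the median sum, the ratio of the peak and that of the gene body had a Pearson correlation of 0.02 and a Spearman correlation of 0.09, given as a description across peaks that share the same 2 libraries. Whether the centre lay in a repeat moved the intergenic median from -0.06 to -0.05 and left that of gene bodies at -0.04.

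At the genes named for H3K36me3, the other marks at or near them pointed mostly the same way, though often within counting error. These marks come from other libraries, whose KO depth was that of the WT 3.85 times over in H3K4me3, 4.56 in H3K27ac and 5.87 in H3K4me1, and the part of depth in these values was not tested. Peaks within 5 kb of a start were summed for H3K4me3 and H3K27ac, and those within 50 kb or in the body for H3K4me1. Of the named higher genes at or above the median sum in each mark, 7 of 8 lay above the median of such genes in H3K4me3. The same held for 6 of 7 in H3K27ac and 10 of 12 in H3K4me1. Of the named lower genes without Gm14005, 7 of 8, 5 of 6 and 10 of 11 lay below it. Rn45s, uncertain for its many copies, is among them in H3K4me3 and H3K4me1. The counting interval lay wholly on that side of the median for fewer genes. Among higher genes these were 6 in H3K4me3, 2 in H3K27ac and 5 in H3K4me1, and among lower genes 5, 2 and 5. In H3K4me3, 1 higher and 1 lower gene lay wholly on the other side. The share of all genes with such an interval is not given for these marks, so the counts do not measure agreement between marks. In H3K36me3 itself intervals that left out 0 were common. Of 5308 genes at or above the median sum, 285 had one on the higher side and 1071 on the lower. Lipg had an H3K4me3 log2 ratio of 0.78 (0.57 to 1.01) beside 0.89 for H3K36me3, and Slc25a37 -0.61 (-0.76 to -0.46) beside -0.56. Others parted, as Ctse had 0.40 (0.18 to 0.62) for H3K4me3 beside -0.58 for H3K36me3, and L3mbtl3 -0.24 (-0.38 to -0.09) beside 0.37. Bcl2l11 had 0.20 (0.07 to 0.34) for H3K4me3 and 0.85 (0.56 to 1.17) for H3K27ac, Trpm2 had -0.06 (-0.23 to 0.11) for H3K4me3, and Gabbr1 -0.09 (-0.26 to 0.09). The H3K4me3 ratios were smaller in size than their H3K36me3 ratios of 1.02, -0.62 and -0.98. For H3K27ac at Bcl2l11 the interval holds 1.02.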

How the data were processed

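H3K36me3 was measured by ChIP-seq in 1 WT and 1 KO library, and the other marks of the series were used only at genes named for it. The input libraries are not analysed here. Per the submitters' processing notes, reads were handled on mm9 with Bowtie2 2.2.3, MACS2 2.1.0 and Trimmomatic 0.32, and HOMER, DiffBind, R 3.1.1 and bcl2fastq 2.16.0 are named as well. The notes state no order or settings, and no source says whether input was subtracted. The authors deposited a normalized read signal per consensus peak and library, with a log2 ratio of the signals that equals the one computed from the deposited columns. In both H3K36me3 columns 100% of values were whole multiples of the lowest value within 0.01 read, so they were taken as whole reads. The lowest value was taken as 1 read, and 0 and 1 read cannot be told apart. In 563 H3K36me3 peaks both libraries stood at it. Had input been subtracted, the recovered numbers would not be raw reads and the counting intervals would not apply. A count model could not be fitted to 1 library per genotype, and no gene was called by one.

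Peaks were classed by the deposited annotation, gene-body meaning any class but Intergenic, including the non-coding exon class that the planned wording did not list. Genes were joined by transcript through a RefSeq table of GRCm38.p6, which gave names only, and 51 gene-body peaks had no gene. A gene's value is the sum over its gene-body peaks. Counts use a fold of 1.5, at least 100 reads per peak, and genes at or above the median sum. Named genes are the 12 highest and 12 lowest of these, every gene around Bcl2l11, the 10 highest and lowest and 5 strongest peaks per class, and per list the 2 highest and 2 lowest members and any past 1.5-fold. Not every gene or peak so chosen is printed, and some are not reported here. The members, the named loci and the 26 gene lists were chosen with earlier results of these data known. Alternatives changed the pseudocount, centring, read filter, class definition and gene value. The steps were tested on simulated reads with counting error only, so the wider spread of the real peaks was not part of that test. Scripts ran in Python 3.11.15 with scipy 1.17.1, pandas 2.3.3, numpy 2.4.6 and, for figures, matplotlib 3.10.9.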

Additional observations from a re-analysis of the deposited data

How the results depend on the processing

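With a pseudocount of 10 the peaks at least 1.5-fold higher were 61 in gene bodies and 12 intergenic, and 44 intergenic peaks were lower, because a larger pseudocount shrinks weak ratios. The read filter moved most counts. With 50 reads required, 631 gene-body peaks were higher and 885 lower, and 227 and 317 intergenic peaks. With 400 reads the counts were 9 and 30, and 0 and 4. With no filter they were 3405 and 2871, and 1981 and 1392. The difference of the class medians, -0.021 by the main setting, was 0.0080, -0.0077 and 0.065 under these filters, and the cause of its sign was not tested. Intergenic peaks over 10 kb from a start gave 12 higher. Taking the strongest peak of a gene gave 11 lower genes against 6, and taking all genes 569 higher and 321 lower. The remaining planned settings kept each count within 1.5 times, and the median difference within its counting width, among them no pseudocount, no centring, running median centring, autosomes only and exon, intron and UTR peaks only. Settings added after the data had been seen, without the deleted interval (270 lower gene-body peaks, 5 lower genes) and with centring on peaks of 100 reads, did so too. Among 127 single genes and peaks, 0 of those past 1.5-fold changed sign, and a change of sign was not counted for the others. When 1 peak stood for the gene, 8 genes left their counting interval, among them Ctse (-1.16), Loxl2 (-1.53) and L3mbtl3 (0.10). With running median centring Trpm2 was at -0.58, under 1.5-fold. Depth limits weak peaks most. No paired analysis was possible because each group holds 1 library.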
